A study of Mus musculus with 12 samples.

Results

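Expression of 9 mouse genes was followed in L929 cells: the interferon-linked ADP-ribosyltransferases Parp9, Parp10, Parp11, Parp12 and Parp14, the ubiquitin ligase Dtx3l, Zc3hav1 (the antiviral protein ZAP), and the DNA-repair enzymes Parp1 and Parp2. They were chosen by name and found through the Entrez Gene identifiers of the deposited table, which held 8 of the 9 among its 17571 genes, and the expression of Parp12 was not analysed here. All 8 passed the filter on low values, at least 3 libraries with an FPKM (fragments counted per kilobase of transcript and scaled to the library) of 1 or more, which left 10412 genes. Parp14 passed through exactly 3 libraries, the same 3 in which it was high, so it had to differ between libraries, and counts over the members are descriptions only.

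L929 is an established line of mouse fibroblasts of the C3H/An strain, and RNA-seq compared its response to a transfected plasmid with and without an inhibitor of the kinase TBK1. There were 4 groups with 3 libraries each. Mock cells carry the label DMSO, the vehicle. The treatment text given for every sample reads as if all cells had been transfected, whereas the agent labels and the study's own description of the groups give untransfected mock and BX795 cells, and the labels were followed. The pEGFP-N1 cells received a plasmid that encodes the fluorescent protein EGFP under a viral promoter, the BX795 cells received 0.5 μM of the TBK1 inhibitor, and the last group received both. Inhibitor or vehicle was given 1 h ahead of the plasmid and RNA was collected at 6 h. All groups come from this line, and the labels do not say whether replicates were separate cultures, so the p-values measure only the spread between these libraries. Read totals cannot be recovered from FPKM, and the depth behind each value is unknown.

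ADP-ribosyltransferases take ADP-ribose from NAD+ and attach it to proteins or nucleic acids, either as single units or as chains. Parp1 and Parp2 build chains at DNA breaks, whereas Parp10, Parp11, Parp12 and Parp14 attach single units, and most of the latter group are known as interferon-stimulated genes. Parp9 works as a partner of the ubiquitin ligase Dtx3l, and ZAP has lost the enzyme activity and binds CpG-rich viral RNA to bring about its decay. Cytosolic plasmid DNA is sensed by cGAS, which signals through STING and TBK1 to switch on type I interferon and the genes that interferon stimulates.

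RefSeq promoter windows of GRCm38.p6, running from 250 bases before to 50 bases after a gene's start, were matched for 4 interferon-linked members (Parp11, Parp12, Dtx3l and Zc3hav1) and for Parp1 and Parp2. Each window was searched on both strands for GAAANNGAAA, the core of the interferon-stimulated response element, and for TTCNNNGAA, the core of the site bound by STAT dimers. The first motif was in 3.44% and the second in 8.30% of all 32851 windows of 300 bases. The stretches below, each free of annotated exons and read 5′ to 3′ on the gene's own strand, are shown because 1 of them holds both motifs while its gene kept an even level, and because Zc3hav1 and Dtx3l reached their highest levels in some transfected libraries with neither motif in these windows. Capitals mark the 2 motifs, which overlap.
Parp11, chr6:127446590-127446839, plus strand: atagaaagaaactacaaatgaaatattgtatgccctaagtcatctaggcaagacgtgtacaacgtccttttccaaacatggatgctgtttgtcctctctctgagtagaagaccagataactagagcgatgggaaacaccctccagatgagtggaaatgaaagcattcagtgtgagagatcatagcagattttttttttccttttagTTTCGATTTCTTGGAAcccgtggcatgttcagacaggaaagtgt
Zc3hav1, chr6:38354604-38354853, minus strand: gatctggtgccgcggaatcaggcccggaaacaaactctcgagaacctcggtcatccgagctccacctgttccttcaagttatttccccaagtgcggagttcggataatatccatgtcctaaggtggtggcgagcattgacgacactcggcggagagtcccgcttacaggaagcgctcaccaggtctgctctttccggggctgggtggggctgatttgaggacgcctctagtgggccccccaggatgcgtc
Dtx3l, chr16:35939207-35939277, minus strand: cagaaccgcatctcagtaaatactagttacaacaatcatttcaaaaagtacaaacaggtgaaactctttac
Parp1, chr1:180568641-180568923, plus strand: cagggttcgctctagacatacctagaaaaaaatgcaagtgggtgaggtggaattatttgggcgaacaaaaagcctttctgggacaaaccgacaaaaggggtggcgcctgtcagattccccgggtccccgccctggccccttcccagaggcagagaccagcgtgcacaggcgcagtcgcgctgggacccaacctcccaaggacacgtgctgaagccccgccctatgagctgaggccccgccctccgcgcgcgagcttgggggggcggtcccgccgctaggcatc
In Parp11 the first motif began 44 bases and the second 37 bases before the start. A second Parp11 window and those of Parp2 and Parp12 held neither. For comparison, 5 of the 8 interferon reporter genes that had a window (Ifit1, Ifit3, Isg15, Rsad2 and Stat2) held the first motif and 0 held the second. A match describes letters in the window and is not evidence of binding.

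Of the 12 libraries, 2 went against their labels in genes that report on interferon. Isg15, a ubiquitin-like protein strongly induced by interferon, was at 151.74 and 129.16 FPKM in pEGFP-N1 replicates 1 and 3 but at 1.38 in the library labelled pEGFP-N1 replicate 2, which is no higher than the 1.46 to 2.61 of mock. The library labelled BX795 plus pEGFP-N1 replicate 1 was at 143.85, against 3.39 and 5.15 in replicates 2 and 3 of that group. Ifit1 gave the same picture, at 0 FPKM in the first of these libraries and 92.64 in the second. Every result on transfected cells below rests in part on these libraries, so values without each are given for the members that they move most. All 7 fibroblast markers were at 1 FPKM or more in every library, with summed levels of 5575 to 7198, most of it S100a4 and Vim. Most of these markers were lower in pEGFP-N1 replicates 1 and 3 and BX795 plus pEGFP-N1 replicate 1 than in the other 9 libraries. Pdgfrb was at 20.56 to 22.23 against 30.6 to 41.16 FPKM, and Col1a2 at 26.5 to 27.57 against 34.88 to 41.68. Col3a1 was at 3.01 to 3.24 against 4.16 to 5.82, and Col1a1 at 48.1 to 53.56 against 55.89 to 78.41. Fn1 was at 6.05 to 6.49 against 6.59 to 9.19, a narrow gap. S100a4 and Vim overlapped between these libraries and the others. The 3 libraries are those with high Isg15 and Parp14, and the part of the markers in the results below was not tested. Epithelial and endothelial markers were at or near 0. Of 4 leukocyte markers only Cd68, which is also expressed outside leukocytes, was at 1 FPKM or more in all libraries. Cd68 was at 131.8 to 137.67 FPKM in the 3 libraries with high Isg15 and at 111.37 to 125.52 in the other 9. Its part in the results below was also not tested. The 4 markers summed to 111.62 to 137.89, with Ptprc, which marks all leukocytes, at 0.01 FPKM or less. In bulk RNA, fewer responding cells and less RNA per cell cannot be told apart.

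In mock cells, Parp1 was the most abundant member, at 58.6 ± 0.407 FPKM (SD, n = 3), followed by Zc3hav1 at 52.65 ± 0.467, Parp2 at 22.5 ± 0.856 and Parp11 at 4.08 ± 0.295. Parp10 was at 2.26 ± 0.165, Parp9 at 1.93 ± 0.116, Dtx3l at 1.12 ± 0.0557 and Parp14 at 0.370 ± 0.132. No 2 neighbours in this order had overlapping values across the 3 mock libraries. The interferon-linked set thus covered most of the range, with ZAP between Parp1 and Parp2 and with Parp14 the lowest member, under 1 FPKM.

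**Figure D1:**
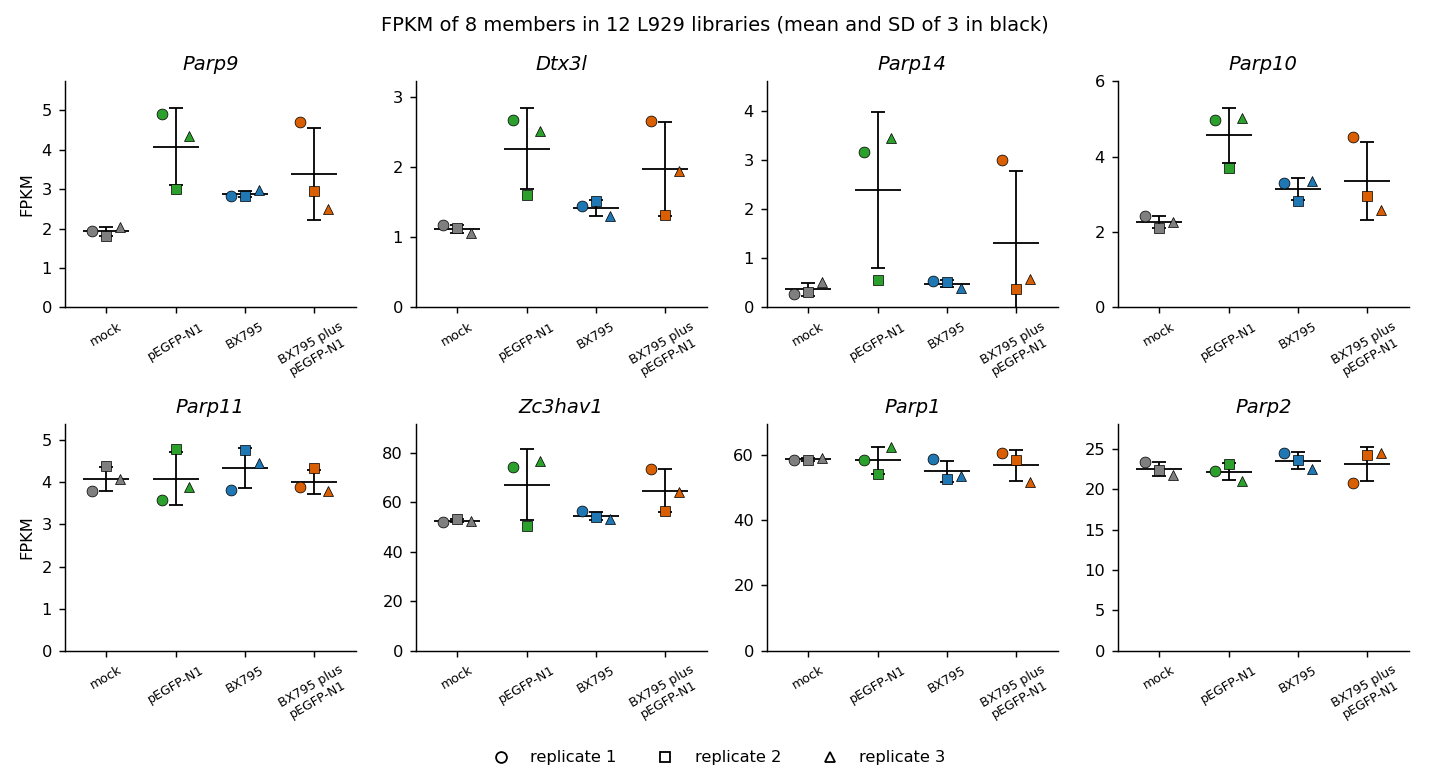
FPKM of the 8 measured members (y axes from 0, one scale per gene) in the 4 labelled groups, with a symbol for each replicate number and the mean ± SD of 3 libraries in black. Replicate 2 of pEGFP-N1 lies below the other 2 of its group for Parp9, Dtx3l, Parp14, Parp10 and Zc3hav1, and replicate 1 of BX795 plus pEGFP-N1 lies above the others of its group for the same genes. The lower SD bar of Parp14 in that last group runs below 0 and ends at the axis.

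Parp9, Dtx3l and Parp14 lie side by side on chromosome 16 of GRCm38, within 139732 bases (chr16:35832874-35972605). Parp9 runs on the plus strand (chr16:35938470-35972605) and Dtx3l on the minus strand (chr16:35926511-35939151), and their starts overlap by 682 bases. In the GENCODE annotation 458 exon bases belong to both, which is 9.40% of the exon bases of Parp9 and 8.0% of those of Dtx3l. Whether the counting used strand is not given in the sources used here, so whether reads from that stretch were kept apart between the pair is unknown. Parp14 (chr16:35832874-35871544, minus strand) ends 54966 bases from Dtx3l and shares no exon with either.

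Parp9 was higher than in mock in every other library. Mock replicates 1 to 3 gave 1.95, 1.81 and 2.04 FPKM, against 4.90, 3.0 and 4.35 after the plasmid. Inhibitor alone gave 2.83, 2.83 and 2.97, and the combination gave 4.71, 2.95 and 2.50. The group ranges therefore did not overlap between mock and pEGFP-N1, while the 2 plasmid groups overlapped. The mean was 2.11-fold that of mock with pEGFP-N1 and 1.49-fold with BX795.

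Dtx3l, the ubiquitin ligase that binds Parp9, was lower throughout. Its 3 mock libraries gave 1.17, 1.13 and 1.06 FPKM, those of pEGFP-N1 2.67, 1.60 and 2.52, those of BX795 1.44, 1.52 and 1.30, and those with both 2.66, 1.32 and 1.94. All 9 libraries not labelled mock were above all 3 mock libraries, as they were for Parp9. Unlike Parp9, Dtx3l in BX795 plus pEGFP-N1 replicate 3 exceeded every BX795 library.

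Parp14, a large enzyme with macrodomains that modifies signalling in immune cells, had the widest spread of the members relative to its mock mean. Its mock libraries held 0.27, 0.32 and 0.52 FPKM, its pEGFP-N1 libraries 3.18, 0.57 and 3.45, its BX795 libraries 0.53, 0.52 and 0.40, and the combination 3.01, 0.37 and 0.59. Only pEGFP-N1 replicates 1 and 3 and BX795 plus pEGFP-N1 replicate 1 were at 1 FPKM or more, at 8.59, 9.32 and 8.14 times the mock mean. The other 6 libraries outside mock lay between 1.0 and 1.59 times it, within or just above the mock range. BX795 and mock overlapped for Parp14, in contrast to its neighbours Parp9 and Dtx3l.

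Parp10 (chr15:76231174-76243441, minus strand) attaches single ADP-ribose units and was first described as a partner of Myc. Mock libraries gave 2.43, 2.10 and 2.26 FPKM and transfected ones 4.96, 3.71 and 5.01, while the inhibitor gave 3.29, 2.81 and 3.34 alone and 4.52, 2.96 and 2.58 together with the plasmid. Again all 9 libraries outside mock were above all 3 mock libraries. This held for 3 of the 8 members (Parp9, Parp10 and Dtx3l) and for 1.93% of the tested genes, a count made after the values were seen. Of the exon bases of Parp10, 4.80% are shared with Plec.

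Parp11 (chr6:127446840-127494261, plus strand) was the interferon-linked member with an even level. The mock libraries held 3.79, 4.38 and 4.07 FPKM, the pEGFP-N1 libraries 3.57, 4.79 and 3.9, the BX795 libraries 3.83, 4.76 and 4.46, and the combination 3.9, 4.34 and 3.80. The groups overlapped in every comparison, and the 3 libraries with high Isg15 were among the 6 lowest. The limma difference between pEGFP-N1 and mock was -0.00 on the log2(FPKM + 1) scale, with a 95% interval of -0.23 to 0.23 that is not adjusted over genes.

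Zc3hav1 (chr6:38305286-38354603, minus strand) was abundant in every library and moved by less. Its mock libraries were at 52.21, 53.14 and 52.60 FPKM, those of pEGFP-N1 at 74.23, 50.55 and 76.97, those of BX795 at 56.44, 53.92 and 53.22, and those with both at 73.73, 56.38 and 64.25. The library labelled pEGFP-N1 replicate 2 was the lowest of all 12, and the other 2 of its group were the highest. The 3 mock libraries differed by less than 1 FPKM, so the 1.40- to 1.46-fold values of pEGFP-N1 replicates 1 and 3 and BX795 plus pEGFP-N1 replicate 1 lay far outside the mock spread. The other 6 libraries outside mock were at 0.960 to 1.22 times the mock mean, and each of them also lay outside the narrow mock range, 5 above it and 1 below, with BX795 plus pEGFP-N1 replicate 3 the furthest at 64.25 FPKM.

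Parp1 (chr1:180568924-180601254, plus strand), the main sensor of DNA breaks in the family, gave 58.30, 58.40 and 59.05 FPKM for mock libraries and 58.36, 54.15 and 62.51 for pEGFP-N1. BX795 libraries gave 58.58, 52.62 and 53.62, and the combination gave 60.45, 58.33 and 51.53. Its relative Parp2 (chr14:50807841-50821301, plus strand) gave 23.44, 22.42 and 21.74 FPKM for mock, 22.34, 23.19 and 21.06 for pEGFP-N1, 24.58, 23.71 and 22.49 for BX795, and 20.77, 24.29 and 24.55 for the combination. The groups overlapped in all 4 comparisons for both genes, and every library lay between 0.880 and 1.09 times the mock mean. The DNA-repair pair thus stayed within a narrow band in libraries where Isg15 ran from 1.26 to 151.74 FPKM.

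**Figure D2:**
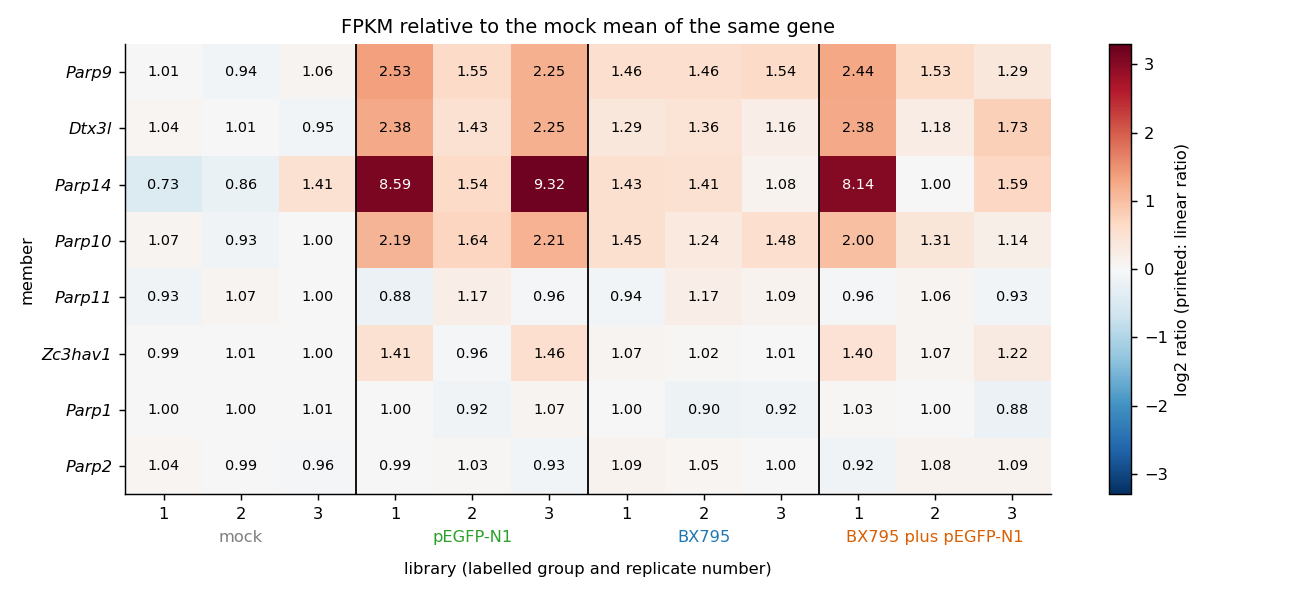
FPKM of each member (rows) in each library (columns, by labelled group and replicate number) divided by the mock mean of that gene, coloured on a log2 scale and printed as a linear ratio. Parp14 stands out at 8.14 to 9.32 in 3 libraries, Parp9, Dtx3l and Parp10 are above the mock mean in all 9 libraries outside mock, and Parp11, Parp1 and Parp2 stay between 0.875 and 1.17.

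Transfection with pEGFP-N1 was compared with mock to ask which genes respond to the plasmid. Parp14, Parp9, Parp10 and Dtx3l had higher mean FPKM than in mock, by 6.49-, 2.11-, 2.01- and 2.02-fold, with no overlap between the groups. Zc3hav1 was 1.28-fold higher on average but overlapped with mock through replicate 2. Parp11, Parp1 and Parp2 were at 1.0-, 0.996- and 0.985-fold of mock.

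None of these differences passed the test. With limma on log2(FPKM + 1), a scale that understates the change of low genes, and Benjamini-Hochberg adjustment over all tested genes, 0 of the 8 members and 7 genes in all (0.0672%) had an adjusted p under 0.05. The log2 difference was 0.78 ± 0.17 (SE) for Parp9 (limma adjusted p = 0.407), 0.76 ± 0.15 for Parp10 (0.270) and 0.61 ± 0.16 for Dtx3l (0.498). Parp14 had the largest difference and the largest error, 1.17 ± 0.41 (limma adjusted p = 0.896), and Zc3hav1 was at 0.32 ± 0.14 (0.995). Before adjustment, 5 of the 6 interferon-linked members (all but Parp11) and 0 of the DNA-repair pair had p under 0.05, as did 4.69% of tested genes. The median difference was 0.68 over the 6 interferon-linked members and -0.00 over all tested genes.

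The 4 members without overlap (Parp9, Parp10, Parp14 and Dtx3l) stand against 5.52% of tested genes with all 3 pEGFP-N1 values above mock. The two-sided exact permutation p was 0.1 for each of the 4, the smallest that 3 against 3 libraries allow, and 0.4 after Benjamini-Hochberg adjustment over the 32 tests of members. Without the library labelled pEGFP-N1 replicate 2, the log2 differences were 1.66 for Parp14, 0.94 for Parp9, 0.88 for Parp10, 0.76 for Dtx3l and 0.51 for Zc3hav1. Their limma adjusted p was then 0.0512 for Parp9, Parp10 and Zc3hav1 and 0.0837 for Parp14 and Dtx3l, so none was called. Without pEGFP-N1 replicate 1 or 3 in turn, the differences were smaller than with all libraries, at 0.95 and 0.91 for Parp14, 0.66 and 0.73 for Parp9, 0.71 and 0.70 for Parp10, 0.51 and 0.54 for Dtx3l, and 0.24 and 0.22 for Zc3hav1. Without BX795 plus pEGFP-N1 replicate 1, whose spread enters the shared error, Parp10 was called, with a limma adjusted p of 0.0486, as 1 of 6 genes in all (0.0576%).

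**Figure D3:**
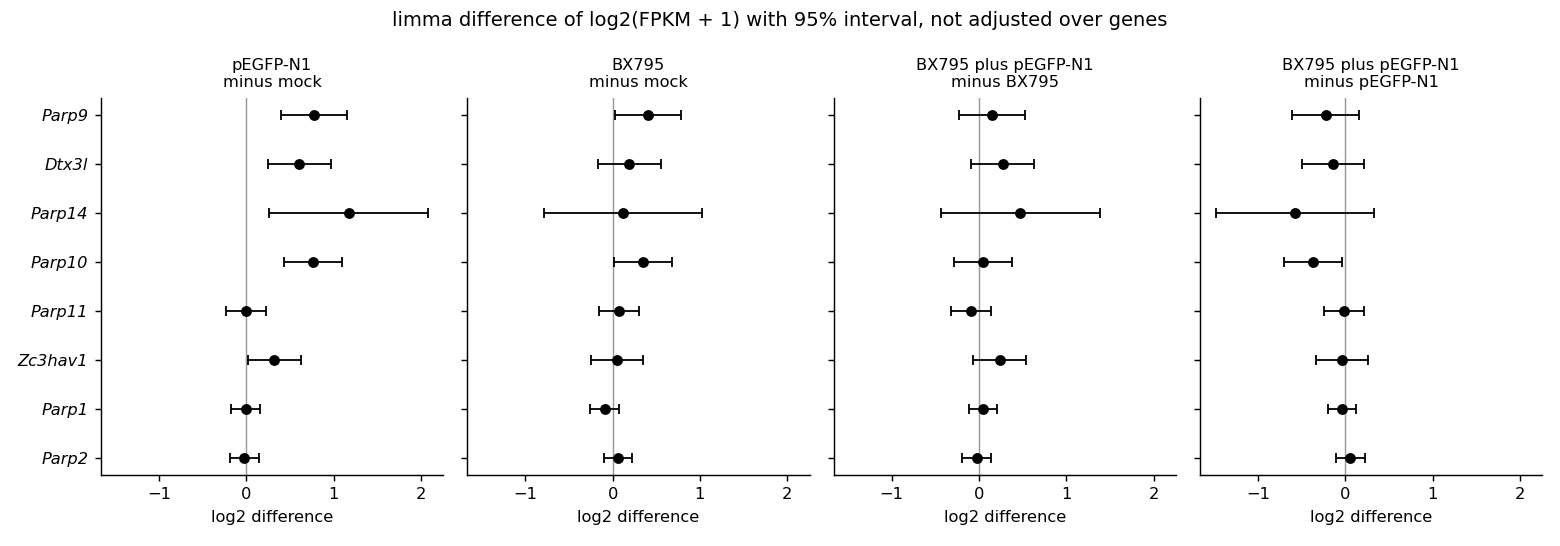
Difference of mean log2(FPKM + 1) between groups (x axis) for the 8 members in 4 comparisons, as points with 95% intervals from limma that are not adjusted over genes. Against mock, the pEGFP-N1 intervals of Parp9, Dtx3l, Parp14, Parp10 and Zc3hav1 lie above 0, and no member was called in any panel after adjustment.

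BX795 alone was compared with mock to separate the inhibitor from the plasmid. Parp9, Parp10, Dtx3l and Zc3hav1 were higher in all 3 BX795 libraries than in any mock library, by 1.49-, 1.39-, 1.27- and 1.04-fold of the mean. All 3 BX795 values lay above mock in 23.6% of tested genes, which is the background for these 4 of 8 members. Isg15 was at 1.26 to 3.76 FPKM in these libraries, near mock, and the median log2 difference of the 10 interferon reporters was -0.04. The higher Parp9, Parp10 and Dtx3l values with BX795 thus came in libraries with Isg15 and Ifit1 (0.04 to 0.45 FPKM) close to their mock levels.

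In the fit with all 4 groups, 0 members and 7 genes (0.0672%) were called. The log2 difference was 0.40 ± 0.17 for Parp9 (limma adjusted p = 0.342), 0.34 ± 0.15 for Parp10 (0.348) and 0.19 ± 0.16 for Dtx3l (0.580). Fitted with the mock and BX795 libraries alone, which leaves out the wide spread of the transfected groups, Parp9 and Parp10 were called at limma adjusted p values of 0.00590 and 0.0191, beside 20.6% of all tested genes. Dtx3l was not called in that fit (adjusted p = 0.123). The exact permutation p of the 4 members without overlap was 0.1, the smallest possible (0.4 after adjustment over 32 tests). Before adjustment, 2 of the 6 interferon-linked members and 13.8% of tested genes had p under 0.05 with all groups in the fit. The median difference was 0.15 over the 6 and 0.03 over all tested genes.

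Plasmid under the inhibitor was compared with the inhibitor alone, and 0 of 8 members and 0% of genes were called by limma. No member had all 3 values of BX795 plus pEGFP-N1 above those of BX795, which 4% of tested genes did. The log2 differences were 0.47 ± 0.41 for Parp14, 0.27 ± 0.16 for Dtx3l, 0.24 ± 0.14 for Zc3hav1, 0.15 ± 0.17 for Parp9 and 0.05 ± 0.15 for Parp10, with limma adjusted p from 0.604 to 0.904. Much of this lay in 1 library: without BX795 plus pEGFP-N1 replicate 1, Parp14 was at -0.01, Parp9 at -0.06 and Parp10 at -0.14, while Dtx3l was at 0.11 and Zc3hav1 at 0.14. Without replicate 2 of that group, Parp14 was at 0.77, Dtx3l at 0.44, Zc3hav1 at 0.33, Parp9 at 0.21 and Parp10 at 0.10, and without replicate 3, Parp14 was at 0.66, Parp9 at 0.29 and Parp10 at 0.18. At unadjusted p under 0.05 there were 0 members and 579 genes.

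Transfected cells with and without BX795 were compared to ask what the inhibitor does to the response. Means were lower with BX795 for Parp14 (0.551-fold), Parp10 (0.735-fold), Parp9 (0.829-fold) and Dtx3l (0.872-fold), and the groups overlapped for every member. All 3 values were lower without overlap in 1.41% of tested genes and in 0 members. Limma called 0 members and 0% of genes, with differences of -0.58 ± 0.41 for Parp14 and -0.37 ± 0.15 for Parp10 (adjusted p = 0.959 for both). Before adjustment, Parp10 was the 1 member with p under 0.05, at 0.0322, among 166 genes. Leaving out the library labelled pEGFP-N1 replicate 2 moved Parp14 to -1.07 (limma adjusted p = 0.402), and leaving out BX795 plus pEGFP-N1 replicate 1 moved it to -1.06 (0.236). The difference of Parp9, -0.23 ± 0.17 with all libraries, was -0.39 and -0.43 without these libraries in turn, that of Parp10 -0.48 and -0.55, that of Dtx3l -0.30 and -0.30 (-0.14 ± 0.16 with all libraries), and that of Zc3hav1 -0.23 and -0.13 (-0.04 ± 0.14), and none was called. Leaving out any other library of the pair of groups made the differences smaller for Parp14 (-0.29 to -0.39), Parp9 (-0.08 to -0.18) and Parp10 (-0.24 to -0.31). The smallest came without BX795 plus pEGFP-N1 replicate 2 for Parp14 and without replicate 3 of that group for Parp9 and Parp10. Dtx3l was then at -0.15 to 0.02.

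The difference between the plasmid effects with and without BX795, the interaction term of the same fit, was -0.71 ± 0.21 for Parp10, -0.70 ± 0.59 for Parp14, -0.63 ± 0.25 for Parp9 and -0.33 ± 0.23 for Dtx3l. Limma gave adjusted p of 0.842 to 0.843 for these 4 and called 0 members and 0% of genes. Before adjustment, 2 members (Parp10 and Parp9) and 407 genes in all were under 0.05 in limma. Without the library labelled pEGFP-N1 replicate 2 the term was -1.18 for Parp14, -0.83 for Parp10, -0.79 for Parp9 and -0.49 for Dtx3l. Without BX795 plus pEGFP-N1 replicate 1 it was -1.18, -0.90, -0.84 and -0.50. With replicate 2 or 3 of BX795 plus pEGFP-N1 or replicate 1 or 3 of pEGFP-N1 left out, it was -0.40, -0.51, -0.48 and -0.43 for Parp14. Dtx3l was at its smallest, -0.17, without BX795 plus pEGFP-N1 replicate 2, and Parp9 and Parp10 at theirs, -0.48 and -0.59, without replicate 3 of that group. No member was called in any of these fits. This term shares its mock and BX795 libraries with the comparisons above, and the BX795 values of Parp9 and Parp10, which lay above mock, enter it with a negative sign. For Zc3hav1, Parp11, Parp1 and Parp2 the term lay between -0.09 and 0.05.

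**Figure D4:**
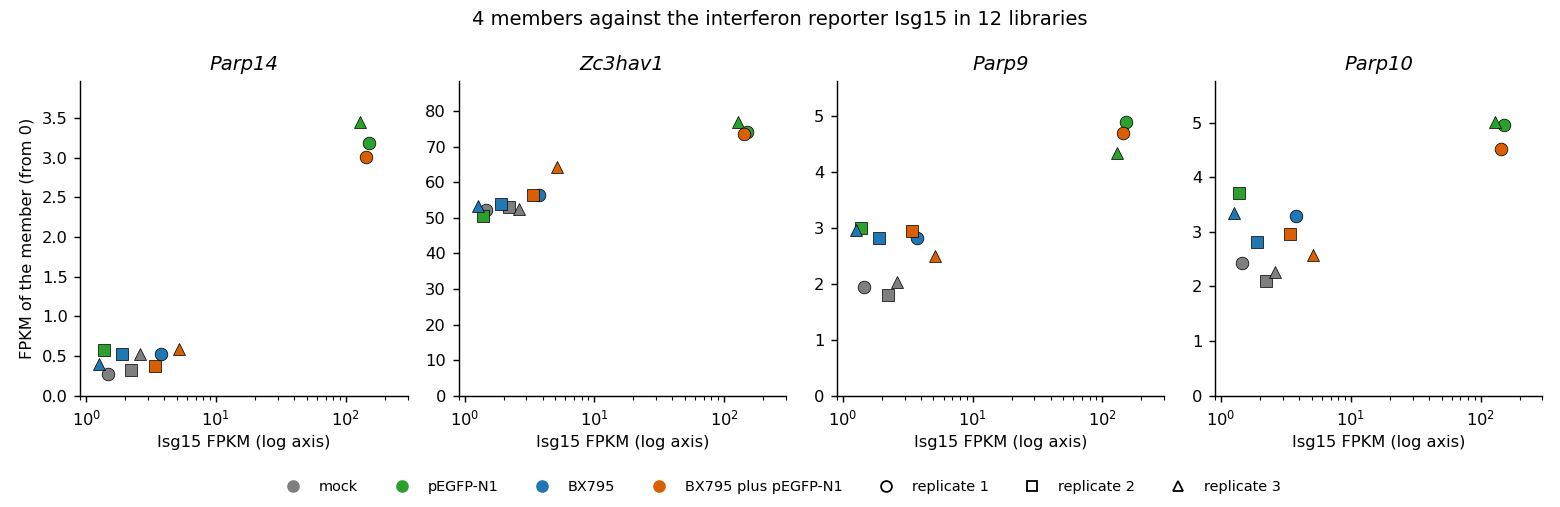
FPKM of Parp14, Zc3hav1, Parp9 and Parp10 (y axes from 0) against FPKM of Isg15 (x axis, log scale) in the 12 libraries, coloured by labelled group with a symbol for each replicate number. In all 4 panels the 3 libraries with Isg15 at 129.16 or more are the highest, and at low Isg15 the mock libraries are the lowest for Parp9 and Parp10.

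Among the members, Parp9 and Parp10 were the most alike over the 12 libraries (Pearson r = 0.965 of log2(FPKM + 1)), and they also ran together over the 6 libraries labelled mock and BX795 (r = 0.942). Parp14 was most like Zc3hav1 (r = 0.932) and Dtx3l (r = 0.924), but over those 6 libraries the values were 0.590 and 0.478. The libraries form separate clusters in these genes, so the values describe the clusters. Any reads shared between Parp9 and Dtx3l would enter their r of 0.904.

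The tested genes outside the list that were most like Parp14 over 12 libraries were Irgm1 (r = 0.993), a GTPase induced by interferon, Ifih1 (r = 0.993), the RNA sensor MDA5, and Znfx1 (r = 0.993). For Zc3hav1 they were Lrrc8d (r = 0.992), Adar (r = 0.988), which edits double-stranded RNA, and Trim34a (r = 0.981). Those of Parp9 and Parp10 were the same 3 genes: Plin2, a coat protein of lipid droplets, Neurl3, a ubiquitin ligase, and Rraga, a GTPase of amino acid signalling (r = 0.982 to 0.991 for Parp9 and 0.948 to 0.962 for Parp10). Over the 6 mock and BX795 libraries, r was 0.949 to 0.984 for Parp9 and its 3 genes. For Parp14 it was 0.857 with Irgm1, 0.825 with Ifih1 and 0.387 with Znfx1, and for Zc3hav1 it was 0.892 with Lrrc8d, 0.911 with Adar and 0.498 with Trim34a. Dtx3l was most like Capn6, Prdm9 and Ddx58 (RIG-I), at 0.952 to 0.967. The even members had other partners: Ctsd, Camk1 and Rps14 for Parp11, Srp68, Clns1a and Gars for Parp1, and Mad2l1, Smurf1 and Plcb4 for Parp2, at 0.898 to 0.960. With 10412 genes and 12 libraries, high values are common, and all points share the libraries and their scaling.

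The other ADP-ribosyltransferases were 8 genes, of which 7 were tested and 0 were called in any of the 5 comparisons. The most abundant were Tnks2 (tankyrase, 29.5 ± 1.52 FPKM in mock), Parp3, Parp16 (a transferase of the endoplasmic reticulum) and Parp6. Parp3, a DNA-repair enzyme, gave 15.56, 12.59 and 13.93 FPKM for mock, 14.04, 20.05 and 13.53 for pEGFP-N1, 17.76, 18.46 and 20.01 for BX795, and 13.87, 19.46 and 19.51 for the combination. It was thus high in the library labelled pEGFP-N1 replicate 2 and low in BX795 plus pEGFP-N1 replicate 1, the reverse of Parp14. Tiparp, a target of the aryl hydrocarbon receptor named after its values were seen, gave 8.40, 4.25 and 8.20 FPKM for pEGFP-N1, 8.20, 4.99 and 6.51 for the combination, and 5.0 to 5.43 for mock. The limma adjusted p of its pEGFP-N1 minus mock difference was 0.9997. The median of the 7 in that comparison was 0.05 on the log2 scale.

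Enzymes that remove ADP-ribose were 6 genes with 5 tested and 0 called. Adprh (48.8 ± 1.71 FPKM in mock), Oard1, Adprhl2 and Parg were the most abundant, and their median difference between pEGFP-N1 and mock, with Macrod1, was 0.05. The Deltex ligases related to Dtx3l were 4 genes with 3 tested (Dtx3, Dtx2 and Dtx4) and 0 called, at differences of -0.02 to 0.07. Of the ZAP partners and relative, all 4 were tested and 0 were called. Trim25, the ubiquitin ligase that ZAP needs, gave 17.01, 17.50 and 18.29 FPKM for mock, 30.74, 15.04 and 31.23 for pEGFP-N1, 17.67, 16.58 and 16.30 for BX795, and 30.02, 17.31 and 21.45 for the combination. It followed the same libraries as Zc3hav1, with a log2 difference of 0.45 between pEGFP-N1 and mock (limma adjusted p = 0.9997). The ZAP cofactors N4bp1 and Khnyn and the relative Zc3hav1l were at 0.14, -0.24 and -0.10.

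The 10 interferon reporters were all above 0 in the same comparison, with a median log2 difference of 2.03, and 0 were called. Their within-group spread was wider still, from 0 to 96.67 FPKM for Ifit1 in the 3 pEGFP-N1 libraries. All members and lists were thus tested against a spread that the 2 libraries going against their labels help to set.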

How the data were processed

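RNA from 12 L929 libraries was sequenced on a BGISEQ-500. The authors used Bowtie2 2.2.5 against GRCm38.p5 (up to 200 alignments reported for a read) and RSEM 1.2.12, and deposited FPKM rounded to 2 decimals for 17571 Entrez identifiers, of which 17450 had a RefSeq symbol and 121 did not. All value columns were used, and 0 of 66 pairs of libraries were identical. In 138 low genes, 35.2% of 420 values lay within 0.1 of a whole multiple of the smallest, so reads were not recovered and count methods were not used. FPKM summed to 467348 to 513761 per library.

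Groups came from the agent labels, not from the shared treatment text, which names no untransfected cells. The 10412 genes that reached an FPKM of 1 in 3 or more libraries were tested. Their log2(FPKM + 1) was fitted with limma 3.58.1 (R 4.3.3; 4 group means, empirical Bayes with trend, Benjamini-Hochberg over all tested genes, calls at an adjusted p under 0.05), after the code was tested on simulated data. Members were also compared by two-sided exact permutation tests (scipy 1.17.1) and by counts of groups without overlap. Python 3.11.15, numpy 2.4.6, pandas 2.3.3 and matplotlib 3.10.9 were used. Every member is named. From further lists the genes of highest mean FPKM are named, up to 4 a list, and likeness lists give the 3 genes of highest r. The members and lists were chosen with earlier results of these data known. Alternatives were each library left out, a block for the replicate number, a fit without the other groups, no trend, scaling to TPM, the 75th percentile or quantiles, a mean FPKM of at least 5 or no filter, pseudocounts of 0.1 and 0.01, and the thresholds of the study's methods (false discovery rate of at most 0.001, log2 fold change of at least 2).

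Gene positions were read from GENCODE (GRCm38). Same-numbered libraries of different groups deviated together (r over 0.1 across genes) in 6 of 18 pairs, so replicate numbers were not taken as pairs.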

Additional observations from a re-analysis of the deposited data

How the results depend on the processing

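No member was called in any comparison under the pseudocounts, filters, scalings and thresholds tried, or without the trend. Exceptions came from 2 other choices. With only the groups compared in the fit, 2 members (Parp9 and Parp10) were called between BX795 and mock, where 2150 genes were called against 7. Leaving out each library in turn gave 0 to 1 members between pEGFP-N1 and mock, the 1 being Parp10 without BX795 plus pEGFP-N1 replicate 1 (6 genes called in all), and 0 members in each other comparison. Over all genes, the 7 calls between BX795 and mock became 149 without pEGFP-N1 replicate 2, 82 without BX795 plus pEGFP-N1 replicate 1 and 0 without any 1 mock library or BX795 replicate 2. The 7 between pEGFP-N1 and mock ranged from 0 to 17 across libraries left out, were 2 with no filter and 4 with only the groups compared, while the 0 calls of the other comparisons became 1 or 2 with no filter, and 0 genes met the thresholds of the study's methods in each comparison. With the replicate block, 0 members were called in each comparison, with 5 genes called between pEGFP-N1 and mock, and 8 of 12 libraries correlated best with their own number. The mean FPKM filter leaves out Parp9, Parp10, Parp11, Parp14 and Dtx3l, which then have no value.

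Of the alternative values of single members, 816 kept their direction and their side of the threshold, 3 passed it and 36 changed sign. Between BX795 and mock, Parp11 was at -0.01 (-0.0095) after quantile normalization. As TPM, Parp2 was at 0.0063 in BX795 plus pEGFP-N1 minus BX795 and Parp11 at 0.0112 in BX795 plus pEGFP-N1 minus pEGFP-N1. The interaction of Parp2 was 0.0381 as TPM, 0.0118 with the 75th percentile and 0.0282 with quantile normalization. With each library left out, pEGFP-N1 minus mock ran from -0.1007 to 0.07 for Parp11, -0.0585 to 0.0434 for Parp1 and -0.052 to 0.0145 for Parp2. BX795 plus pEGFP-N1 minus BX795 ran from -0.06 to 0.2931 for Parp9, -0.1368 to 0.1756 for Parp10, -0.0061 to 0.7686 for Parp14, -0.0014 to 0.1117 for Parp1 and -0.0669 to 0.0486 for Parp2. BX795 plus pEGFP-N1 minus pEGFP-N1 ran from -0.089 to 0.0817 for Parp11, -0.305 to 0.0239 for Dtx3l, -0.2277 to 0.0708 for Zc3hav1 and -0.0911 to 0.0275 for Parp1. The interaction ran from -0.1614 to 0.0093 for Parp11, -0.2769 to 0.0216 for Zc3hav1 and -0.0457 to 0.0697 for Parp2. The cause was not tested. Depth is unknown, so what it limits cannot be stated.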
